A study of Mus musculus with 17 samples.

Results

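The genes that carry newly made proteins into the endoplasmic reticulum, fold them there and pack them into transport vesicles were followed in 17 arrays of cells sorted from NOD mice, all male. Lymphocytes invade the lacrimal glands of this strain, which therefore serves as a mouse model of Sjögren's syndrome. Members were chosen by gene symbol: subunits of the signal recognition particle (Srp), the translocon (Sec61, Sec62, Sec63 and Ssr), signal peptidase (Spcs and Sec11), the ribophorins Rpn1 and Rpn2, the disulfide isomerases Pdia3 to Pdia6, the vesicle coats COPII (Sec13, Sec23, Sec24) and COPI (Cop), and the chaperone and stress genes Hspa5, Hsp90b1, Calr, Canx, Dnajb9, Creld2, Herpud1, Ddit3 and Atf4. Of the 17097 genes with a probe set of their own, 49 were members. Each was read from 1 probe set, the one with the highest mean over all arrays, and values are log2 levels. Copb1, Sec11a, Sec61g, Srp19 and Srp68 also fit the symbols and were not analysed here.

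The arrays fell into 5 groups: B cells (4 arrays), CD4 T cells (4) and epithelial cells (3) of the lacrimal gland, and B cells (3) and CD4 T cells (3) from spleen. No transgene or treatment is named, so the groups share strain and sex and differ in cell type and organ. Epithelial cells were sorted as negative for CD45 and positive for CD326, B cells by B220 without CD3 and CD4 T cells by CD3 and CD4, to a stated purity over 99%. The age is 16 weeks for the gland. For the spleen the sample labels also give 16 weeks but the design text 4 weeks, and if the latter holds, organ and age cannot be told apart. Enzymatic digestion is described for the gland only. The labels do not say whether replicates were separate animals, so p-values here reflect the spread among these samples alone, and that spread may be technical. For 3 RNA samples the labels state a lower RNA integrity score than for the rest, and these samples were not matched to arrays here.

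A secreted protein is recognised on the ribosome by the signal recognition particle, threaded through the Sec61 channel, trimmed by signal peptidase, glycosylated, folded by chaperones of the endoplasmic reticulum such as Hspa5, and carried to the Golgi in COPII vesicles, while COPI vesicles bring escaped components back. When unfolded proteins build up, the unfolded protein response raises chaperone genes and the transcription factors Atf4 and Ddit3. Acinar cells of the lacrimal gland make the proteins of tears, and among lymphocytes antibody-secreting plasma cells are the type known for enlarging this machinery.

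The chaperone members are shown first by a promoter sequence that several of them share. The ER stress response element, through which the unfolded protein response is known to act, is CCAAT followed after any 9 bases by CCACG. It was searched on both strands from 250 bases before to 50 bases after each transcription start in RefSeq promoters (build GRCm38.p6). Promoters of a whole chromosome, and any not written wholly in capital A, C, G, T or N, were left out first. Among those kept, 45 of the 49 members had an entry. The element occurred in 6 members, 13.3%, and in 37 of the 27025 genes kept, 0.137%. All 6 encode folding proteins of the endoplasmic reticulum. The members were picked by name and include chaperone genes that this response is known to raise, so matches among them could be foreseen. The shares given for this motif and those below describe the list and are not a test of enrichment. The windows below are read along the strand of the element and show 12 bases on either side, with the fixed letters of the element in capitals. They are printed because their genes moved together in only part of the comparisons that follow. All but Hspa5 were higher in epithelium than in gland lymphocytes by the adjusted p, while fewer passed between gland and spleen.
Hspa5: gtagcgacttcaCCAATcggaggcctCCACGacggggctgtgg
Hsp90b1, farther from the start: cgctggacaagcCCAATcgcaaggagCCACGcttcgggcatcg
Hsp90b1, nearer to the start: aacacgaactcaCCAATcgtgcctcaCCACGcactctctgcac
Calr: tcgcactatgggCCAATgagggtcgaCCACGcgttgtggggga
Canx: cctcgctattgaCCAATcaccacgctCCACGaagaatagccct
Creld2: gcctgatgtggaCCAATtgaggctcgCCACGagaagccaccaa
Pdia6: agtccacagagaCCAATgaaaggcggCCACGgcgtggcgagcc

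The Hspa5 window lies at chr2:34772013-34772055 on the plus strand, and its element ends 46 bases before the start. In Pdia6 (chr12:17266479-17266521, plus strand) the gap was 79 bases, in Creld2 (chr15:88819508-88819550, minus strand) 107, in Canx (chr11:50325788-50325830, minus strand) 126 and in Calr (chr8:84847063-84847105, plus strand) 143. Hsp90b1 held elements at chr10:86705626-86705668 on the minus strand and at chr10:86705521-86705563 on the plus strand, 193 and 88 bases before its start. A related form, ATTGG and CCACG separated by 1 base, was found in 1 member, Herpud1, and in 12 of all genes, 0.0444%. It is shown with the same flanks and capitals, and lies 41 bases before the start at chr8:94386365-94386399 on the plus strand.
Herpud1: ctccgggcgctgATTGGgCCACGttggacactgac

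The other motifs searched occurred in larger shares of all genes. TGACGTG, the core of the unfolded protein response element, occurred in Copb2, Hspa5, Sec23a and Sec24d, 8.89% of members against 2.22% of genes. TGATGNAA, a form of the site known for binding by Atf4 and its partners, occurred in Herpud1 alone, 2.22% of members against 4.51% of genes. The windows of Dnajb9, Atf4 and Ddit3 held no exact match to either form of the ER stress response element. Only exact matches were searched, so forms that differ by a base were missed, in these genes and in the others. These matches describe letters in a window and do not show that a factor binds there. The 250 bases before the start of Hspa5, at chr2:34771840-34772089 on the plus strand, show its exact match to the element (capitals) close to the start.
Hspa5: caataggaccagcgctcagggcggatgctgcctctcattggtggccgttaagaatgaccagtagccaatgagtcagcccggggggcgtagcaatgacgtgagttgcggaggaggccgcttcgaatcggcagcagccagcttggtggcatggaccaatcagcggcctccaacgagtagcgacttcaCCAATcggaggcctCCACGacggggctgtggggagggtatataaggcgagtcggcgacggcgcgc

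The sorts carried the markers of their labels, with exceptions that touch the results. Arrays of 1 group correlated at 0.977 to 0.995 over all genes, and 45 members lay above the median of all values, 4.71, in every array. The exceptions were Pdia3 (below it in 16 arrays), Pdia5 (14), Copz2 (6) and Srp54b (1); no detection calls come with the values, so levels under this median are not shown to be above background. Epithelial replicate 1 stood apart: Ptprc, which encodes CD45, was at 9.62 there and at 2.42 and 2.36 in replicates 2 and 3, and the leukocyte list averaged 8.72 against 5.02 and 4.96. All 3 epithelial arrays also carried endothelial genes (list means of 8.03 to 8.56, against 3.65 to 4.41 in lymphocytes) and myoepithelial genes (8.21 to 8.55 against 3.95 to 4.69). Fibroblast genes (5.88 to 6.51 against 3.17 to 3.56) and red cell precursor genes (7.44 to 7.72 against 4.33 to 6.49) were higher there as well. Gland lymphocytes carried epithelial identity genes at 5.51 to 5.75 in B cells and 5.71 to 5.91 in CD4 T cells, against 3.92 to 4.14 in spleen lymphocytes and 8.98 to 9.49 in epithelium. Obp1a, an odorant-binding protein gene of the secretory list, was at 11.01 to 11.47 in gland lymphocytes and at 2.46 to 4.81 in spleen lymphocytes. Fosb, an immediate early gene, was at 10.08 to 10.90 in all 11 gland arrays and at 3.55 to 4.37 in the 6 spleen arrays.

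**Figure D1:**
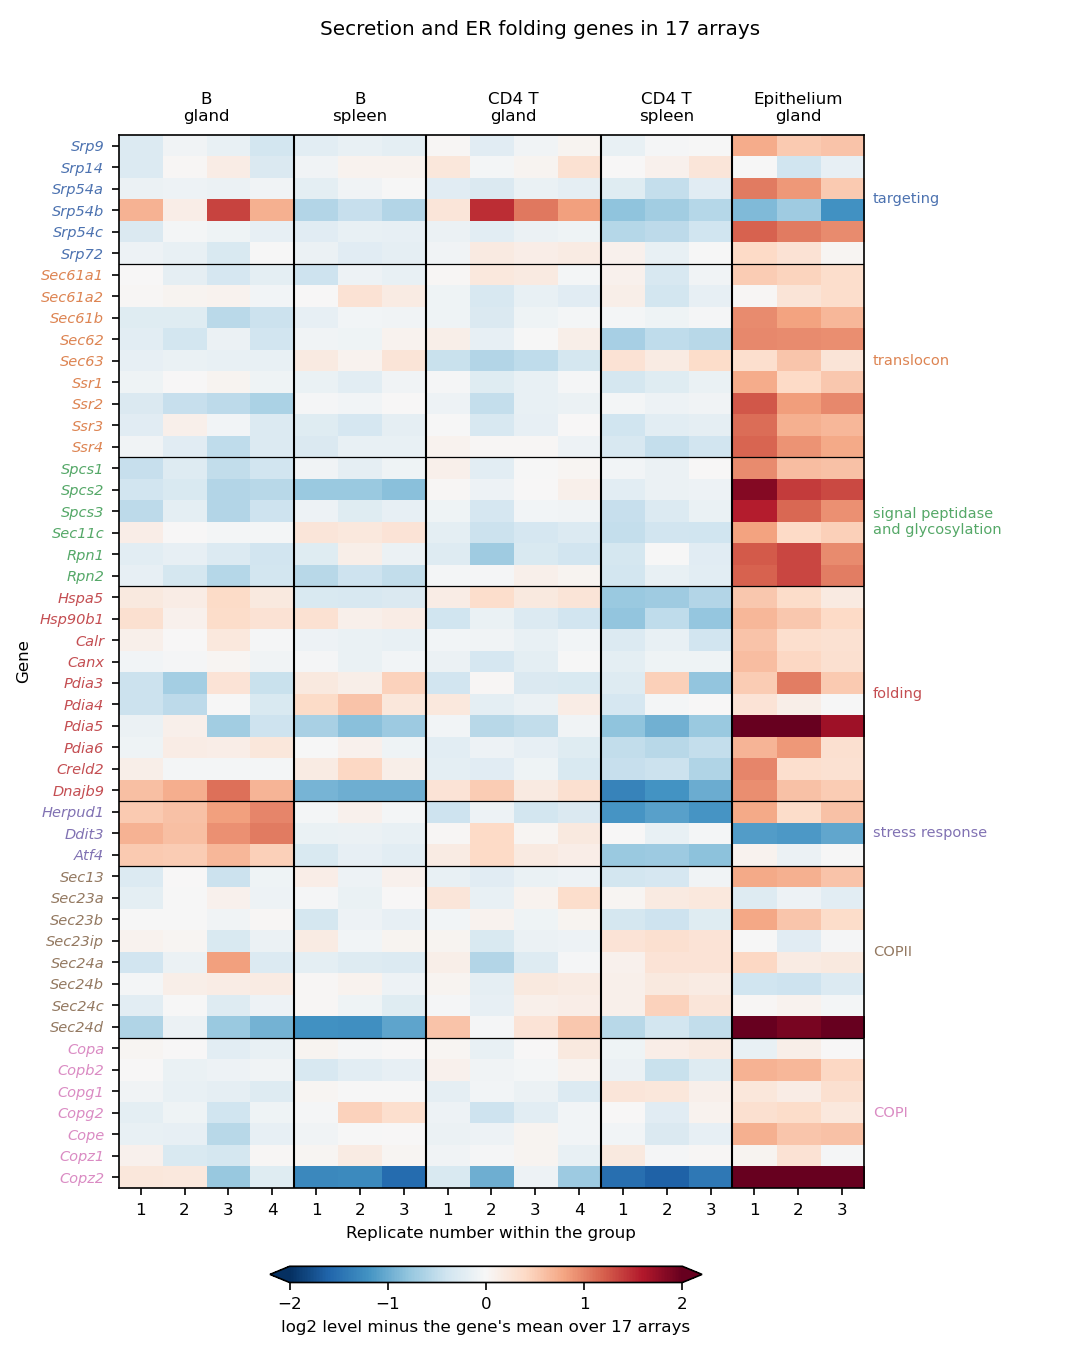
Log2 level of each of the 49 genes in each of the 17 arrays, drawn as the difference from that gene's mean over all arrays (colour bar in log2 units), with genes in rows by role and arrays in columns by group and replicate. Epithelium has the highest group mean for 37 of the 49 genes, Dnajb9, Hspa5, Atf4 and Herpud1 are higher in gland than in spleen arrays of each lymphocyte subset, and Srp54b and Ddit3 run against the epithelial pattern.

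Most of the import and secretion genes were higher in the gland's epithelial sort than in the lymphocytes sorted from the same organ, 34 of 49 by the adjusted p. Against the average of both gland lymphocyte subsets, 12 of 49 members were at least 2-fold higher at an adjusted p under 0.05 (24.5%, against 14.9% of all genes) and 2 were lower (4.08% against 9.81%). Without the fold minimum 34 were higher (69.4% against 26.7%) and 5 lower (10.2% against 35.3%), or 27 and 10 when arrays were centred on their medians. Differences were tested with limma over all genes, with Benjamini-Hochberg adjustment, and a member also needed an epithelial mean beyond both lymphocyte means. The median difference over members was 0.62 (log2), and over all genes -0.10. Averaged over members, the level was 9.27, 9.15 and 9.04 in epithelial replicates 1, 2 and 3, and 8.27 to 8.55 in the 14 lymphocyte arrays. These are bulk measurements, in which fewer cells of a type and less RNA per cell cannot be told apart.

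Replicate 1, the array with leukocyte genes, was the highest of the 3 epithelial arrays for 33 members, and its plasma cell list averaged 7.71 against 6.73 and 6.55. Without it the counts were 11 higher and 2 lower, or 33 and 5 without the fold minimum. Ssr4 (0.96) and Sec61b (0.98) then fell short of 2-fold, and Pdia3 (1.05) passed it. Taken against gland B cells alone, 14 members were higher and 2 lower with the fold minimum (16.2% and 10.4% of all genes), and 34 and 4 without it (28.1% and 35.7% of all genes). Against gland CD4 T cells alone the counts were 10 and 2 (14.8% and 10.6%), and 35 and 6 (26.3% and 31.9%). The part of the cells behind the endothelial, myoepithelial, fibroblast and red cell precursor genes in these differences was not tested.

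**Figure D2:**
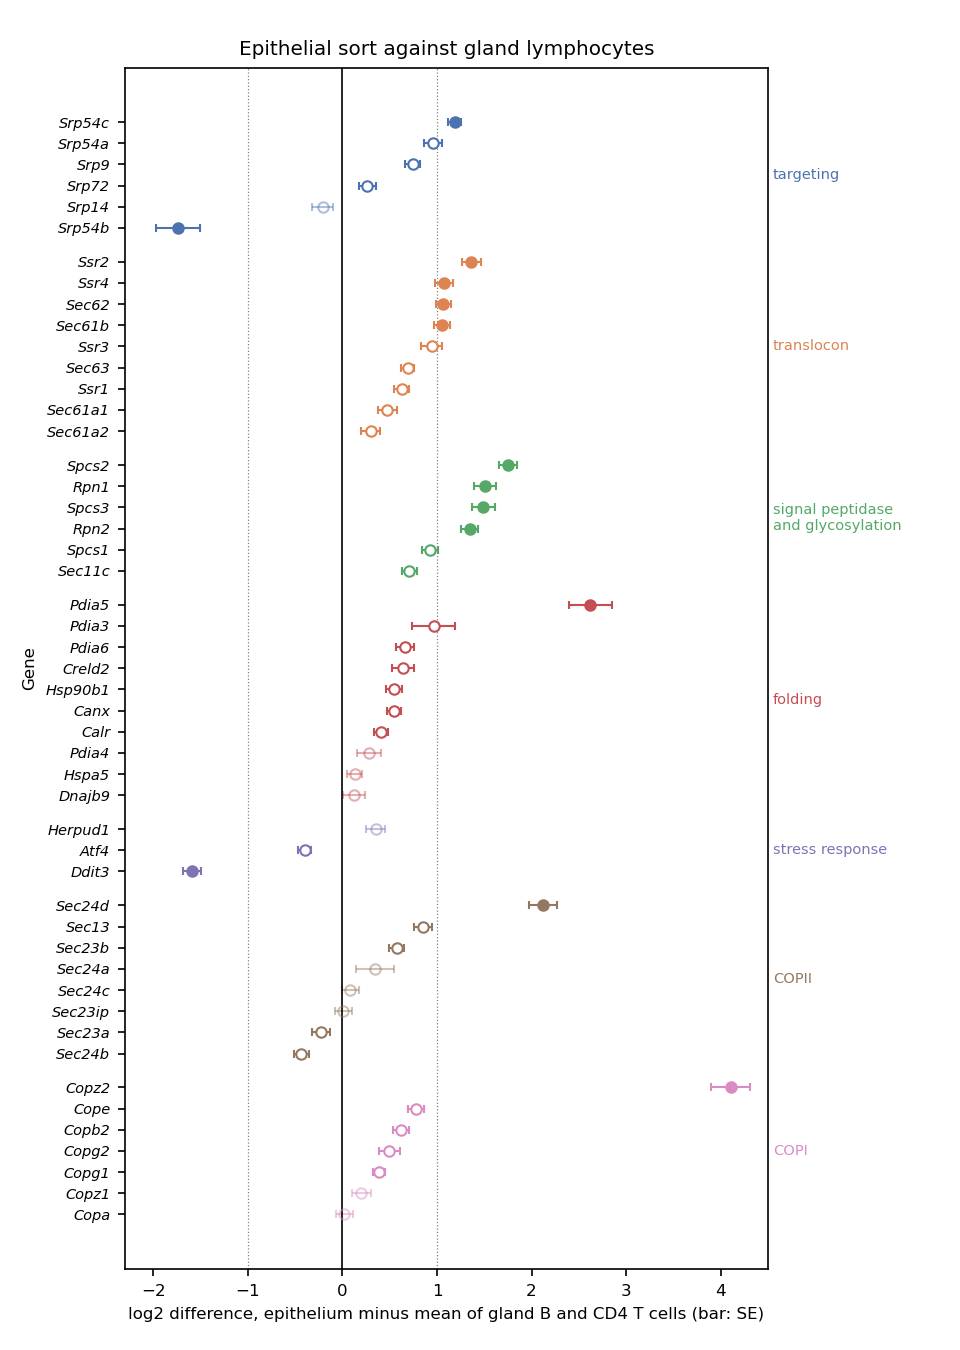
Difference in log2 level between the epithelial sort and the average of both gland lymphocyte subsets for each of the 49 genes, grouped by role; points are model estimates from 3, 4 and 4 arrays and bars their standard errors. Filled points passed the adjusted p and the 2-fold minimum (dotted lines), open points the adjusted p alone, and pale points neither. All 15 translocon, peptidase and glycosylation genes lie right of 0, while Srp54b and Ddit3 are the only filled points to the left.

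Every measured gene of the translocon, of signal peptidase and of the ribophorins was higher in epithelium at the adjusted p on its brightest probe set, 15 genes in all. Of 27 other probe sets of called members with a mean above the median of all values, 20 had the same sign and 7 the opposite one, and the latter belong to Sec61a1, Sec61a2, Sec62, Ssr4 and Spcs1 among these 15 genes and to Pdia6 and Srp54a. Of the 6 peptidase and glycosylation genes 4 passed 2-fold, with a median difference of 1.42, and of the 9 translocon genes also 4, with a median of 0.95. Spcs2, a subunit of signal peptidase, was at 11.13, 10.70 and 10.62 in the epithelial arrays, at 8.70 to 8.98 in gland B cells and at 9.20 to 9.40 in gland CD4 T cells. The lowest epithelial array thus lay above every lymphocyte array. Its difference was 1.75 (SE 0.10, adjusted p = 1.73e-10 in limma), a 3.36-fold difference. Rpn1, a ribophorin of the oligosaccharyltransferase that attaches sugar chains, stood at 9.04, 9.16 and 8.77 in epithelium, against 7.43 to 7.65 in gland B cells and 7.11 to 7.56 in gland CD4 T cells. Again no array overlapped, and the difference was 1.51 (SE 0.11, adjusted p = 7.5e-09 in limma). Spcs3 and Rpn2 were higher by 1.49 and 1.35.

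In the translocon the Ssr2 gene, for a subunit of the translocon-associated protein complex, gave the largest difference, 1.36 (SE 0.10, adjusted p = 3.84e-09 in limma). Its levels were 9.88, 9.47 and 9.60 in epithelium, 8.00 to 8.33 in gland B cells and 8.16 to 8.52 in gland CD4 T cells. Sec62, which helps small precursors through the channel, was at 9.88 to 9.92 in epithelium and at 8.57 to 9.08 in gland lymphocytes, a difference of 1.07. Sec61b, a small subunit of the channel, was higher by 1.05, and Sec61a1, which forms its pore, by 0.48. Ssr1, Ssr3, Sec63 and Sec61a2 were higher by 0.30 to 0.95, and of the peptidase genes Spcs1 and Sec11c, a catalytic subunit, by 0.93 and 0.71. Not every probe set bore these differences out: with the mean of each gene's probe sets Sec62 was higher by 0.64, and Ssr4, higher by 1.07 on its brightest probe set, was lower by 0.33 (adjusted p = 0.000577 in limma). Centring each array on its median, which moved the median of all genes in this comparison from -0.10 to -0.42 and that of the members from 0.62 to 0.30, took Sec62 to 0.75 and Ssr4 to 0.76, both short of 2-fold.

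Among the subunits of the signal recognition particle, Srp9 and Srp72 were higher in epithelium by 0.74 and 0.26 and Srp14 did not pass (-0.21, adjusted p = 0.112 in limma). Without epithelial replicate 1 Srp72 did not pass (adjusted p = 0.125) and Srp14 did, as lower (-0.30, adjusted p = 0.0477). Srp54, the subunit that binds the signal peptide, is encoded in the mouse by near-identical copies that the probe sets may not separate, and these did not go the same way. Srp54a (0.96) and Srp54c (1.19) were higher in epithelium; Srp54c came to 0.87 after centring on array medians. Srp54b was lower by 1.74 (SE 0.23, adjusted p = 5.83e-06 in limma), at 4.82, 4.99 and 4.49 in epithelium against 5.84 to 7.17 in the 8 gland lymphocyte arrays. Its epithelial values sat near the median of all values and overlapped those of spleen lymphocytes, 4.90 to 5.24.

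Folding genes differed less. At the adjusted p 7 of 10 were higher in epithelium, but the median difference was 0.55 and 1 passed 2-fold. That gene was Pdia5, a disulfide isomerase, at 7.03, 6.17 and 5.64 in epithelium and between 3.25 and 4.05 in gland lymphocytes, which lay under the median of all values. The fitted difference was 2.62 (SE 0.22, adjusted p = 3.66e-08 in limma), and 2.25 without replicate 1; its size is uncertain, since the lymphocyte values are not shown to be above background. Pdia3 was higher by 0.97 on a probe set that lay under that median in 16 arrays, Pdia6 by 0.66 (adjusted p = 0.454 in limma after averaging its probe sets), and Pdia4 did not pass (0.28, adjusted p = 0.055). Calr and Canx, lectin chaperones of glycoproteins, were higher by 0.41 and 0.54, and Hsp90b1, the form of Hsp90 in the endoplasmic reticulum, by 0.55. Hsp90b1 stood at 10.05, 9.92 and 9.79 in epithelium, above the 9.47 to 9.76 of gland B cells and the 8.99 to 9.26 of gland CD4 T cells. Creld2, a stress-induced disulfide protein, was at 8.79 in replicate 1 and at 8.15 and 8.12 in the others, against 7.50 to 7.93 in gland lymphocytes; its difference was 0.64, and 0.42 without that replicate.

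Hspa5 and Dnajb9 did not separate epithelium from gland lymphocytes. For Hspa5, the main Hsp70 chaperone of the endoplasmic reticulum, the epithelial arrays read 10.74, 10.57 and 10.38, overlapping the 10.35 to 10.58 of the 8 gland lymphocyte arrays (difference 0.13, SE 0.08, adjusted p = 0.159 in limma). Dnajb9, a co-chaperone of Hspa5, read 9.75, 9.41 and 9.33 in epithelium and overlapped the 9.01 to 9.93 of gland lymphocytes (0.13, SE 0.11, adjusted p = 0.352 in limma).

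The stress response genes went the other way or stood between the subsets. Ddit3, a transcription factor of prolonged stress, was at 7.09, 7.07 and 7.17 in epithelium and at 8.06 or more in all 14 lymphocyte arrays. The difference from gland lymphocytes was -1.59 (SE 0.10, adjusted p = 4.35e-10 in limma). Sec24b was the only other member below every lymphocyte array, where 19.3% of all genes lay. Above every lymphocyte array were 28 members, against 19% of all genes. Atf4 was lower in epithelium by 0.40, with 10.40 to 10.58 there against 10.995 to 11.18 in gland B cells and 10.64 to 10.92 in gland CD4 T cells. Herpud1, a membrane protein of the degradation route out of the endoplasmic reticulum, had an epithelial mean of 9.67 ± 0.19 (SD, n = 3), between gland B cells at 9.83 ± 0.21 (n = 4) and gland CD4 T cells at 8.81 ± 0.13 (n = 4).

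The coats of transport vesicles were led by a single isoform each. Copz2, an alternative zeta subunit of COPI, gave the largest difference of all members, 4.11 (SE 0.20, 17.2-fold, adjusted p = 4.46e-11 in limma). It was at 9.45, 9.80 and 9.37 in epithelium, at 5.01 to 6.004 in gland B cells and at 4.80 to 5.67 in gland CD4 T cells, while its paralog Copz1 did not differ at the threshold (0.20, adjusted p = 0.0878 in limma). Sec24d, which with Sec24a to Sec24c makes up the cargo-selecting subunits of COPII, was at 8.80 to 8.93 in epithelium, at 5.95 to 6.78 in gland B cells and at 6.88 to 7.48 in gland CD4 T cells. Its difference was 2.12 (SE 0.15, adjusted p = 2.9e-09 in limma). Sec24a (0.34) and Sec24c (0.08) did not pass, and Sec24b was lower by 0.44. The other COPI subunits Copb2, Copg1, Copg2 and Cope were higher by 0.39 to 0.78, and Sec13 and Sec23b of COPII by 0.85 and 0.57. Copa (0.02) and Sec23ip (0.01) did not pass, and Sec23a was lower by 0.23, which did not pass without epithelial replicate 1 (-0.19, adjusted p = 0.145 in limma). Copg1 (adjusted p = 0.341 in limma) and Copg2 (0.109) no longer passed when arrays were centred on their medians.

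**Figure D3:**
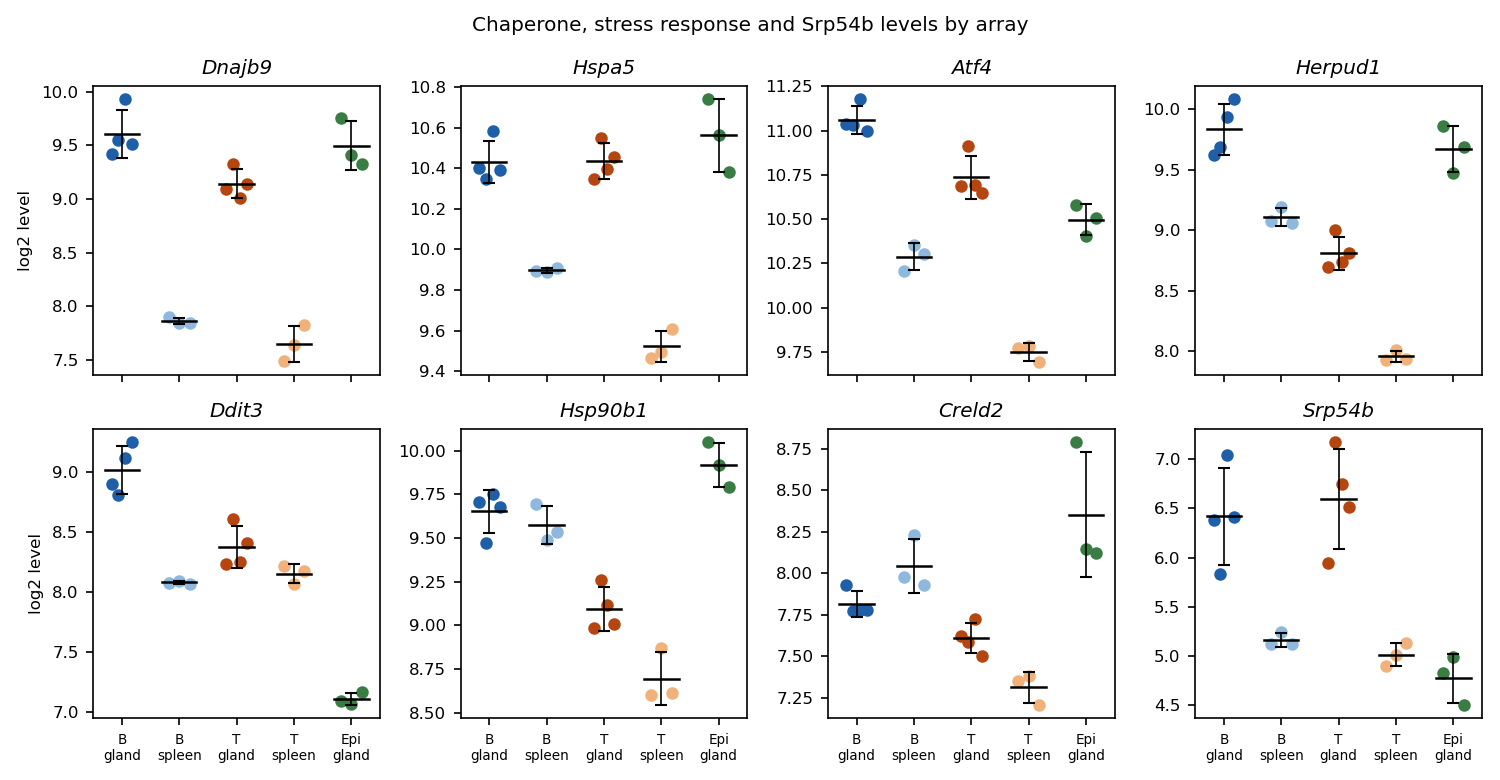
Log2 level in each array of 7 chaperone and stress genes and of Srp54b, by group; points are arrays, horizontal lines group means and bars standard deviations (n = 4 for gland B and CD4 T cells, 3 for the other groups; axes do not start at 0). Dnajb9, Hspa5, Atf4, Herpud1 and Srp54b sit higher in gland than in spleen arrays of both lymphocyte subsets, Ddit3 does so in B cells, and Ddit3 is lowest in epithelium.

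In B cells 12 of the 49 members differed between gland and spleen by the adjusted p, with Dnajb9, Srp54b, Copz2, Ddit3, Atf4, Herpud1 and Hspa5 among those higher in the gland. At an adjusted p under 0.05 and 2-fold, 3 of 49 members were higher in the gland (6.12%, against 2.58% of all genes) and 0 lower (against 1.6%); without the fold minimum 8 were higher (16.3% against 7.79%) and 4 lower (8.16% against 9.87%). The lower count was the less stable: it was 7 with arrays centred on their medians (8 higher), 9 with array weights (9 higher), and 2 to 6 when 1 array was left out (2 without spleen replicate 3). The median difference was -0.00 over members and 0.00 over all genes. The gland and spleen arrays did not overlap for 22 members, 12 higher (14.5% of all genes were) and 10 lower (16.1%).

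Dnajb9 gave the largest difference. It stood at 9.42, 9.55, 9.93 and 9.51 in gland B cells and at 7.89, 7.84 and 7.84 in spleen B cells. The groups were far apart, and the difference was 1.74 (SE 0.13, 3.35-fold, adjusted p = 2.33e-07 in limma). Hspa5 read 10.40, 10.35, 10.58 and 10.39 in the gland and 9.90, 9.89 and 9.91 in the spleen (0.53, SE 0.09, adjusted p = 0.000573 in limma). Atf4 was at 11.04, 11.03, 11.18 and 10.995 in gland and 10.21, 10.36 and 10.30 in spleen B cells (0.77, SE 0.08, adjusted p = 6.85e-06 in limma).
Each gland array thus lay above each spleen array for these 3 genes. The same held for Herpud1, at 9.63, 9.69, 9.93 and 10.08 in gland against 9.07, 9.19 and 9.06 in spleen B cells (0.72, SE 0.12, adjusted p = 0.000439 in limma), and for Ddit3, at 8.90, 8.81, 9.12 and 9.25 against 8.08, 8.10 and 8.07 (0.94, SE 0.11, adjusted p = 1.93e-05 in limma). With the mean of its probe sets the Atf4 difference was 0.33, since its second probe set averaged 3.87, under the median of all values.

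Other chaperones of the same compartment did not follow. Hsp90b1 was at 9.47 to 9.76 in gland and 9.49 to 9.70 in spleen B cells, overlapping groups (0.08, adjusted p = 0.662 in limma). Creld2 was at 7.77 to 7.93 and 7.93 to 8.23 (-0.23, adjusted p = 0.281), and Calr (0.20), Canx (0.05) and Pdia6 (0.10) did not pass either. Of the 6 members with the longer ER stress response element, Hspa5 was therefore the single one that passed in B cells. Pdia4, a disulfide isomerase, was lower in the gland by 0.71 (adjusted p = 0.00221 in limma), at 4.75 to 5.27 against 5.51 to 5.84.

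Srp54b was at 6.39, 5.84, 7.04 and 6.42 in gland B cells and at 5.12, 5.24 and 5.12 in spleen B cells (1.26, SE 0.26, adjusted p = 0.00305 in limma). Copz2 was at 6.004, 5.98, 5.01 and 5.52 against 4.49, 4.495 and 4.23 (1.23, SE 0.23, adjusted p = 0.00157). Neither pair of groups overlapped, but the spleen values of Copz2 lay under the median of all values. Sec24d was higher in the gland by 0.56 (adjusted p = 0.029 in limma), a call lost in 6 of 16 alternatives, including without gland replicate 1 or 2 and without spleen replicate 1 or 2. Ssr2, Copg2 and Sec63 were lower by 0.46, 0.46 and 0.31. The call of Copg2 was lost without gland replicate 3 or spleen replicate 2 or 3 (adjusted p of 0.0562 to 0.115 in limma) and that of Sec63 without spleen replicate 1 or 3 (0.0505 and 0.08), and Sec63 came to -0.08 (0.505) when its probe sets were averaged.

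In CD4 T cells Dnajb9, Srp54b, Atf4, Hspa5, Copz2 and Herpud1 were among the members higher in gland than in spleen. By adjusted p and 2-fold, 2 of 49 members were higher than in spleen (4.08%, against 5.35% of all genes) and 0 lower (against 1.62%), and without the fold minimum 14 were higher (28.6% against 12.7%) and 3 lower (6.12% against 10.7%). The median difference was 0.13 over members and -0.03 over all genes. Groups did not overlap for 19 members that were higher (16.8% of all genes) and 4 that were lower (17.7%). When arrays were centred on their medians, which took the median of all genes from -0.03 to -0.19, 9 members were higher and 7 lower.

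Dnajb9 was at 9.09, 9.33, 9.01 and 9.14 in gland and 7.49, 7.63 and 7.82 in spleen CD4 T cells, well separated (1.49, SE 0.13, 2.81-fold, adjusted p = 3.88e-07 in limma). Hspa5 was at 10.35, 10.55, 10.39 and 10.45 against 9.46, 9.49 and 9.61 (0.91, SE 0.09, adjusted p = 1.22e-06). Atf4 was at 10.69, 10.92, 10.69 and 10.64 against 9.77, 9.78 and 9.69 (0.99, SE 0.08, adjusted p = 1.79e-07). All 3 genes were higher in each gland array than in each spleen array, and so was Herpud1, at 8.69, 8.999, 8.74 and 8.81 against 7.93, 8.01 and 7.93 (0.85, SE 0.12, adjusted p = 4.64e-05 in limma).
Ddit3 did not pass in CD4 T cells. Its gland values of 8.24, 8.61, 8.25 and 8.41 lay just above the spleen values of 8.22, 8.06 and 8.17 (0.22, SE 0.11, adjusted p = 0.161 in limma).

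Srp54b gave the largest difference in CD4 T cells, 1.58 (SE 0.26, adjusted p = 0.000275 in limma), at 5.94, 7.17, 6.75 and 6.51 in the gland and 4.90, 5.01 and 5.13 in the spleen. Copz2 was at 5.47, 4.80, 5.67 and 5.04 against 4.26, 4.16 and 4.35 (0.99), and Sec24d at 7.48, 6.88, 7.18 and 7.45 against 6.34, 6.53 and 6.41 (0.82). For all 3 the groups were apart, though the spread within gland arrays was wide. Hsp90b1 was higher by 0.40 (8.99 to 9.26 against 8.60 to 8.87) and Pdia6 by 0.33, while Calr, Canx and Creld2 did not pass. Of the 6 members with the longer element, 3 thus passed in CD4 T cells. Ssr4 (0.39), Srp54c (0.37), Sec23b (0.33) and Copb2 (0.29) completed the 14. Pdia6 lost its call in 12 of 16 alternatives, including without any 1 of the 7 arrays, and Copb2 in 7, including without gland replicate 1 or 4 or spleen replicate 2 or 3. Sec23b lost it without spleen replicate 1 or 2 (adjusted p = 0.0572 and 0.0803 in limma) and Ssr4 without spleen replicate 2 (0.0619). Centring also ended the calls of Hsp90b1, Pdia6, Srp54c, Copb2 and Sec23b.

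Sec63, a partner of the channel that recruits Hspa5, was the 1 member lower in the gland in both subsets by the adjusted p, at 8.08, 7.94, 8.01 and 8.17 against 8.81, 8.69 and 8.88 in CD4 T cells (-0.74, SE 0.08, adjusted p = 6.81e-06 in limma). Sec62, its usual partner, was higher in gland CD4 T cells by 0.60 on the brightest probe set and by 0.10 (adjusted p = 0.589 in limma) on the mean of its probe sets. Sec23ip and Copg1 were lower by 0.40 and 0.34, calls that the mean of probe sets also removed (adjusted p = 0.339 and 0.0637).

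**Figure D4:**
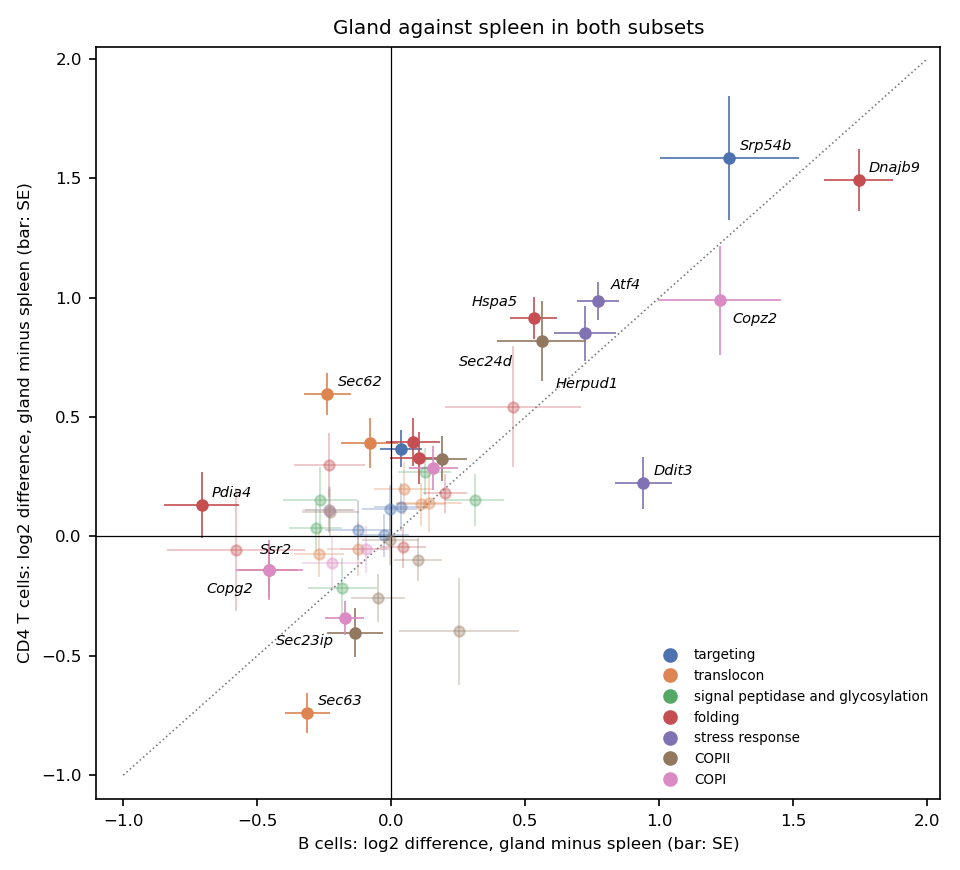
Difference in log2 level between gland and spleen for each of the 49 genes, in B cells (horizontal) and CD4 T cells (vertical); points are model estimates from 4 gland and 3 spleen arrays in each subset and bars their standard errors. Solid points passed the adjusted p in at least 1 subset, names mark those with a difference of at least 0.4 in either, and the dotted line marks equal differences. Dnajb9 and Srp54b lie farthest up the line, and Ddit3, Pdia4 and Sec62 lie off it.

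In both subsets 7 members were higher in the gland by the adjusted p: Atf4, Copz2, Dnajb9, Herpud1, Hspa5, Sec24d and Srp54b. The epithelium of the same organ, whose genes were seen in gland lymphocytes, stood differently to each of these. Copz2, Sec24d and Hspa5 had higher means in epithelium than in either gland lymphocyte group. Atf4 in epithelium (10.50 ± 0.09, SD, n = 3) lay between spleen and gland cells of both subsets, and Srp54b (4.77 ± 0.25, n = 3) lay below the spleen cells of both. Of the 14 members higher in gland CD4 T cells, the epithelial mean was above that of the gland cells for 12; of the 8 higher in gland B cells it was above for 3, between for 3 and below the spleen cells for 2, Ddit3 and Srp54b. For comparison, epithelium had the highest group mean for 37 of all 49 members. A high epithelial mean was thus common among the members in general, and the share over all genes is not given here. The part of epithelial RNA, of enzymatic dissociation or of age in the differences between gland and spleen was not tested.

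As a list, plasma cell genes were not higher in gland than in spleen B cells. By limma 0 of 10 measured plasma cell genes were higher and 1 was lower, with or without the fold minimum. Of all genes 2.58% were higher and 1.6% lower with it, and 7.79% and 9.87% without it. List means were 7.65 to 7.94 against 8.14 to 8.30. The limma spread also took in the epithelial arrays, where some of these genes varied widely (Irf4 SD 1.58, n = 3), so differences could be missed. Irf4 (11.56 to 11.65 against 10.93 to 11.01) and Ell2 were higher in every gland B array than in every spleen B array without a call. Jchain (9.43 to 9.86 against 11.15 to 11.22), Tnfrsf13b, Derl3 and Xbp1 were lower in the same way. In gland CD4 T cells 5 of 10 were higher by adjusted p and 2-fold, against 5.35% of all genes, namely Jchain, Ell2, Prdm1, Irf4 and Xbp1. List means were 7.55 to 7.82 against 6.35 to 6.61. Of these genes Prdm1, Irf4 and Xbp1 are also expressed by activated T cells. Jchain was at 8.32 to 9.54 in gland and at 4.26 to 6.85 in spleen CD4 T cells. Which cells these values came from was not tested.

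**Figure D5:**
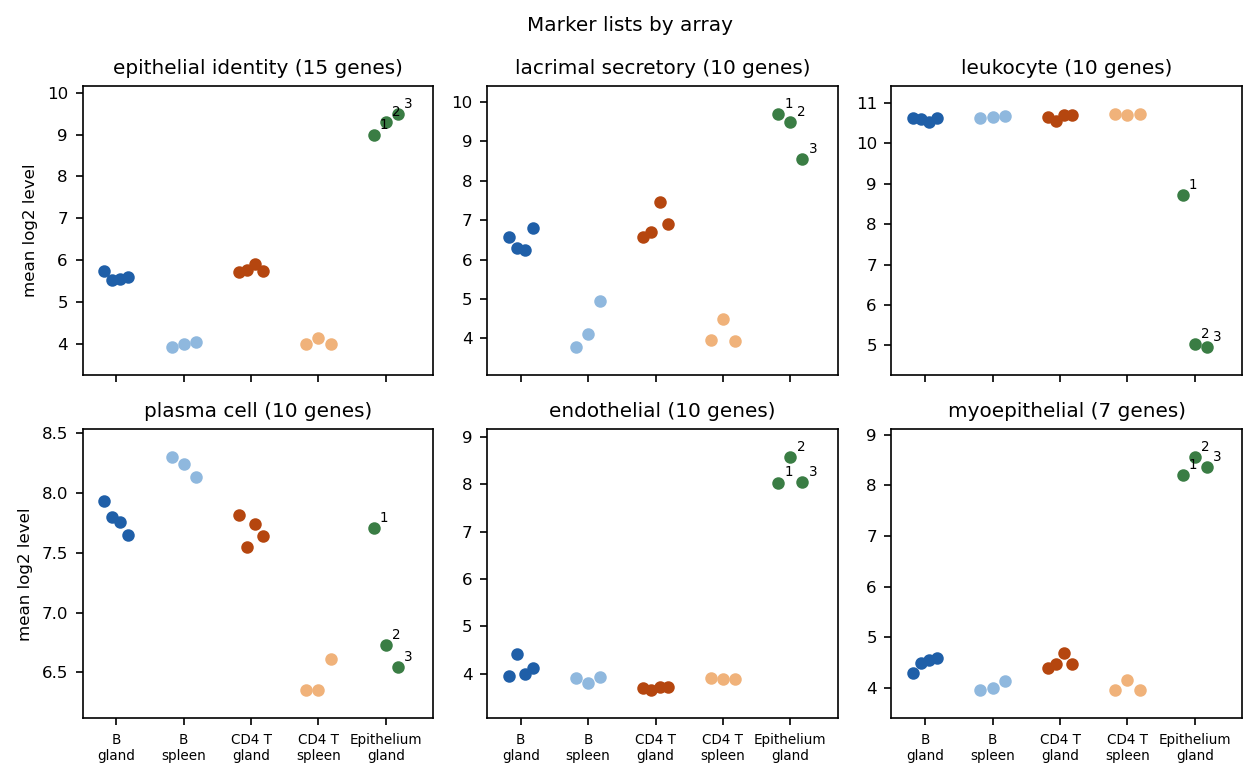
Mean log2 level of 6 marker lists in each array, by group; each point is an array, and numbers give the replicate in the epithelial sort. Epithelial replicate 1 stands above the other epithelial arrays for leukocyte and plasma cell genes, and gland lymphocytes lie between spleen lymphocytes and epithelium for epithelial identity and secretory genes.

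Whether the gland effect differed between B and CD4 T cells was tested directly. At an adjusted p and 2-fold, 0 of 49 members differed in either direction (against 1.22% and 3.87% of all genes), and without the fold minimum 2 differences were above 0 and 2 below (3.57% and 6.55% of all genes). Ddit3 had the larger gland effect in B cells, by 0.72 (SE 0.15, adjusted p = 0.00521 in limma), and passed in all 23 alternatives. Pdia4 had a difference of -0.84 (SE 0.20, adjusted p = 0.0106), with -0.71 for B and 0.13 for CD4 T cells; quantile normalization gave an adjusted p = 0.0507. Sec62 (-0.83) and Sec63 (0.43) depended on the probe set: with the means of probe sets they came to -0.20 (adjusted p = 0.495 in limma) and 0.25 (adjusted p = 0.159). Sec63 was also lost without gland B replicate 2, spleen B replicate 1 or 2, gland CD4 T replicate 2 or 3, or spleen CD4 T replicate 1 or 3. Dnajb9 (0.25, SE 0.18, adjusted p = 0.485 in limma), Atf4 (-0.21, 0.296), Herpud1 (-0.13, 0.739) and Hspa5 (-0.38, 0.0683) were not shown to differ between the subsets.

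B and CD4 T cells of 1 organ differed in single genes, among them Herpud1, Hsp90b1, Sec24d and Spcs2. Within the gland 1 member was higher and 0 lower at an adjusted p and 2-fold (2.04% and 0%, against 3.73% and 5.97% of all genes), and without the fold minimum 8 were higher and 6 lower (16.3% and 12.2%, against 14.3% and 16.1%). Within the spleen the counts were 1 and 0 (against 4.63% and 4.52%), and 10 and 3 (20.4% and 6.12%, against 11.1% and 11.3%). Herpud1 was the member past 2-fold in both organs, by 1.02 in gland (SE 0.11, adjusted p = 1.28e-06 in limma) and 1.15 in spleen (SE 0.12, adjusted p = 2.2e-06); without gland B replicate 3 or 4, or gland CD4 T replicate 1 or 3, the gland difference was 0.94 to 0.997 and short of 2-fold. Hsp90b1 was higher in B cells by 0.56 in gland and 0.88 in spleen and Atf4 by 0.32 and 0.54. Ddit3 was higher in B cells of the gland by 0.65 and did not differ at the threshold in the spleen (-0.07, adjusted p = 0.771 in limma). Sec24d and Spcs2 were lower in B cells, by 0.95 and 0.47 in the gland and by 0.69 and 0.63 in the spleen. Hspa5 was at 10.43 ± 0.10 (SD, n = 4) in gland B and 10.44 ± 0.09 (n = 4) in gland CD4 T cells.

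Other genes of the same route were read from 7 lists that exclude the members. In the epithelial comparison at an adjusted p and 2-fold, where 14.9% of all genes were higher and 9.81% lower, 8 of 23 other folding and redox genes were higher and 0 lower, with Sil1 (1.66) and Dnajc3 (1.66), co-chaperones of Hspa5, and Sdf2l1 (1.38) leading. Of 13 genes of degradation from the endoplasmic reticulum, 4 were higher, among them Derl3 (3.19), Edem3 (1.51) and Sel1l (1.28). COPII and exit-site genes gave 4 of 13, led by Sec16b (2.50) and the cargo receptor pair Lman1 (2.28) and Mcfd2 (2.26). Sec16b was dim, with means of 4.72 in epithelium, 2.06 in gland B and 2.38 in gland CD4 T cells, so the size of its difference is uncertain. COPI and Golgi return genes gave 4 of 14, led by Arfgap3 (2.85), Kdelr3 (2.46) and Tmed3 (2.40). For signal recognition particle receptors and translocon partners the count was 3 of 7 (Tmco1, Srpr, Srprb), and for other oligosaccharyltransferase subunits 2 of 8 (Magt1, Ddost). None of these 6 lists had a gene lower in epithelium by that rule, though without the fold minimum 2 receptor and translocon genes and 1 degradation gene were. Their median differences ran from 0.50 to 0.73, against -0.10 over all genes. In gland against spleen B cells these 6 lists gave 0 calls by that rule in limma, and without the fold minimum 2 folding genes were higher and 3 lower and 1 COPII gene was on either side. In CD4 T cells Arfgap3 was higher (1.02) and Ncln lower (-1.06).

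Of 18 sensors and targets of the unfolded protein response, 8 were higher in epithelium and 1 lower (14.9% and 9.81% of all genes). Asns, a target of Atf4 that makes asparagine, was higher by 3.57, the transcription factor gene Atf3 by 3.25, Creb3l1 by 3.20 and Xbp1, a factor of secretory cells, by 2.17; Mbtps2, the protease that releases Atf6, was lower by 1.45. Epithelium thus carried less Atf4 and Ddit3 but more Asns and Atf3 than the gland lymphocytes. Gland B cells had 2 of the 18 higher than spleen B cells, Ppp1r15a (4.12) and Atf3 (3.65), where 2.58% of all genes were. Gland CD4 T cells had 6 higher, against 5.35% of all genes: Ppp1r15a (3.98), Atf3 (2.60), Creb3l2 (2.19), Asns (1.86), Atf6 (1.33) and Xbp1 (1.14). For 4 of these the gland effect was larger in CD4 T than in B cells by the test of the difference: Creb3l2 (-2.41), Asns (-1.59), Xbp1 (-1.37) and Atf6 (-1.30), given as B minus CD4 T cells. Creb3l1 in gland lymphocytes and Atf3 in spleen lymphocytes lay under the median of all values. So did the Asns mean in spleen CD4 T cells, 4.59 (3.98 to 4.95 over arrays). The sizes of the differences that rest on these levels are uncertain. Ppp1r15a and Atf3 are also immediate early genes, and Fosb in the same arrays was given above.

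The genes outside the members whose 5 group means followed Hspa5 most closely were Pnp (r = 0.994), Scgb1b2 (0.991) and Pnp2 (0.988), among genes with a range of means of at least 1. Scgb1b2 is a secretory product gene that was high in all 3 gland groups (group means of 12.03 to 12.61) and low in spleen (5.88 and 7.42). Hspa5 varied far less, with means of 10.43 to 10.56 in the gland groups and of 9.52 and 9.90 in spleen CD4 T and B cells. With 5 groups as points the likeness is a description only.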

How the data were processed

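RNA of sorted cells was amplified, labelled with biotin and hybridised to 17 arrays. The deposited table holds log2 values per probe set; the submitters' processing notes name Partek and RMA, and versions are not given in the sources used here. Of 45141 probe sets, 104 were controls, 28898 had exactly 1 gene and 551 several. For each of 17097 genes the probe set with the highest mean was kept, with no filter. The 49 members, the gene lists, the roles and the tests were chosen with earlier results of these data known. Named genes are members with the largest called change by role and comparison, all chaperone and stress genes, and up to 3 called genes per other list.

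All arrays entered 1 model with 5 group means, using limma 3.58.1 under R 4.3.3 (lmFit and eBayes, 12 residual and 3.17 prior degrees of freedom), with Benjamini-Hochberg adjustment over all genes. A gene was called at an adjusted p under 0.05 and 2-fold, and counted also without the fold. For the epithelial comparison its mean had to lie beyond both lymphocyte means. The pipeline was tested on simulated data. The number of arrays limits the precision. Replicate numbers were checked for pairing, and deviations of same-numbered arrays correlated at -0.40 to 0.21. Arrays with unlike numbers were not set beside them, so the check cannot show that pairing is absent. The labels do not say that equal numbers pair samples, and the main model held no pairing and treated arrays as independent. Nor can the check show that arrays within a group came from separate animals. Alternatives were no fold minimum, a filter on dim genes (3 or more arrays above the overall median), averaging the probe sets of a gene, quantile normalization, centring of arrays on their medians, trend and robust eBayes, array weights, a replicate block, only the compared arrays, leaving out each array and, added after seeing the data, epithelium against each lymphocyte subset alone. Figures were drawn with matplotlib 3.10.9.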

Additional observations from a re-analysis of the deposited data

Results flagged for a closer look

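Among 98 groups of 4 arrays (49 members in gland B and gland CD4 T cells), 4 held an array far from the others, where chance alone marks about 1 group in 20. Cope stood at 8.51 in gland B replicate 3 and at 8.91 to 8.92 in the other 3 arrays. Creld2 stood at 7.93 in gland B replicate 1 and at 7.77 to 7.78 in the others. In gland CD4 T replicate 2, Spcs3 stood at 8.37 against 8.61 to 8.64 and Ssr2 at 8.16 against 8.48 to 8.52.

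The gland effect differed between B and CD4 T cells for 4 members by the test of the difference. As B minus CD4 T cells, the values were 0.72 for Ddit3 (adjusted p = 0.00521 in limma), -0.84 for Pdia4 (0.0106), -0.83 for Sec62 (0.000264) and 0.43 for Sec63 (0.029). With the means of probe sets Sec62 and Sec63 no longer passed.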

How the results depend on the processing

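Of 424 member counts under alternatives, 384 stayed within 1.5 times the count as reported. Of 1331 values of named members 1 turned its direction: Ssr4 in epithelium, -0.33 with the mean of its probe sets. Without a fold minimum the counts higher and lower became 34 and 5 for epithelium, 8 and 4 for B cells, 14 and 3 for CD4 T cells, 2 and 2 for the difference of the gland effects, and 8 and 6 in the gland and 10 and 3 in the spleen for B against CD4 T cells. The following counts are by the adjusted p alone unless stated. Centring on array medians gave 10 lower for epithelium, 7 lower for B cells, and 9 higher and 7 lower for CD4 T cells. Array weights gave 9 lower for B cells, 8 lower for the difference, and 13 and 5 lower for B against CD4 T cells in gland and spleen. Trend and robust settings gave 4 lower for the difference, and only the compared arrays gave 6. The mean of probe sets gave 1 higher for the difference by adjusted p and 2-fold. Equal replicate numbers were not shown to pair arrays. With the replicate block, 4 members were higher in CD4 T cells by adjusted p and 2-fold and 1 was higher for the difference, and no other count moved by over 1.5 times.

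Leaving out 1 array at a time, members higher in CD4 T cells by adjusted p and 2-fold ran from 2 to 4 (4 without gland replicate 4). Members lower in B cells ran from 2 to 6 (2 without spleen replicate 3), and those higher for the difference from 1 to 2. For B against CD4 T cells in the gland, members higher by adjusted p and 2-fold ran from 0 to 1 and members lower from 0 to 1 (1 without gland B replicate 2 or gland CD4 T replicate 2). The filter on dim genes kept 10351 genes and 48 members. Signal limits Pdia3, Pdia5, Copz2 and Srp54b, which lay partly under the median of all values.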
